A study of Arabidopsis thaliana with 4 samples.

Results

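The jasmonate receptor gene COI1, the transcription factor genes MYC2, MYC3 and MYC4 and 6 of their output genes (VSP1, VSP2, CLH1, TAT3, CORI3 and NATA1) were read out of whole-seedling RNA-seq of Arabidopsis thaliana, by their gene identifiers. All 10 genes were found among the 24252 genes that any library listed. The series compared 2 libraries titled fer-4, whose genotype is given as homozygous for a mutation of FERONIA (FER), a receptor kinase of the plasma membrane, with 2 libraries titled WT. Both groups were seedlings of ecotype Col-0, 7 days old, raised upright on plates of diluted MS salts under a daily 16 h light and 8 h dark phase, without any treatment. The labels name no allele besides fer-4, and they leave the origin of the replicates (plates, days) unsaid. The p-values thus set the difference between groups against the scatter of these libraries only, estimated partly over all genes. Part of that scatter may be technical. Levels are FPKM, fragments scaled to transcript length and library size, as deposited.

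Jasmonates are lipid-derived hormones that plants make after wounding and insect feeding. COI1 is the F-box subunit of a ubiquitin ligase, and it binds the hormone jasmonoyl-isoleucine together with a JAZ repressor protein, which is then degraded. MYC2, MYC3 and MYC4, basic helix-loop-helix (bHLH) factors that the JAZ proteins hold inactive, are thereby released and switch on wound and anti-herbivore genes. Transcript levels, as measured here, do not show how much of each protein is present or active.

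COI1 had overlapping levels in fer-4 and WT, MYC2 and MYC3 rose in fer-4 by 1.80 and 1.40 times, and 5 of the 6 outputs rose by 5.48 times (VSP1) or more. Of the 10 genes, 7 rose in fer-4 seedlings and 0 fell, where 14.3% of the 19183 tested genes rose and 9% fell, 23.3% in all (limma on log2(FPKM + 1), Benjamini-Hochberg adjusted p under 0.05). With quantile normalization 2285 genes rose and 2364 fell, against 2743 and 1726 here. The risers were MYC2, MYC3, VSP1, VSP2, CLH1, TAT3 and NATA1, while COI1, MYC4 and CORI3 did not pass. The median log2 fold change was 1.81 over the 10 genes, 0.38 over COI1 and the 3 MYC genes, 3.20 over the 6 outputs and 0.01 over all tested genes. All 10 genes passed the filter for testing, which asked for 1 FPKM or more on average over the 4 libraries. TAT3 and NATA1 passed it only through fer-4, where they were high, so counts and medians that include them lean towards rises. The 10 genes were also chosen with earlier results of these data known, so their counts and medians are a description. Both fer-4 libraries lay above both WT libraries for 9 of the 10 genes, which was also the case for 34.4% of all tested genes, while 31.7% lay below and 66.1% were apart in either direction.

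**Figure D1:**
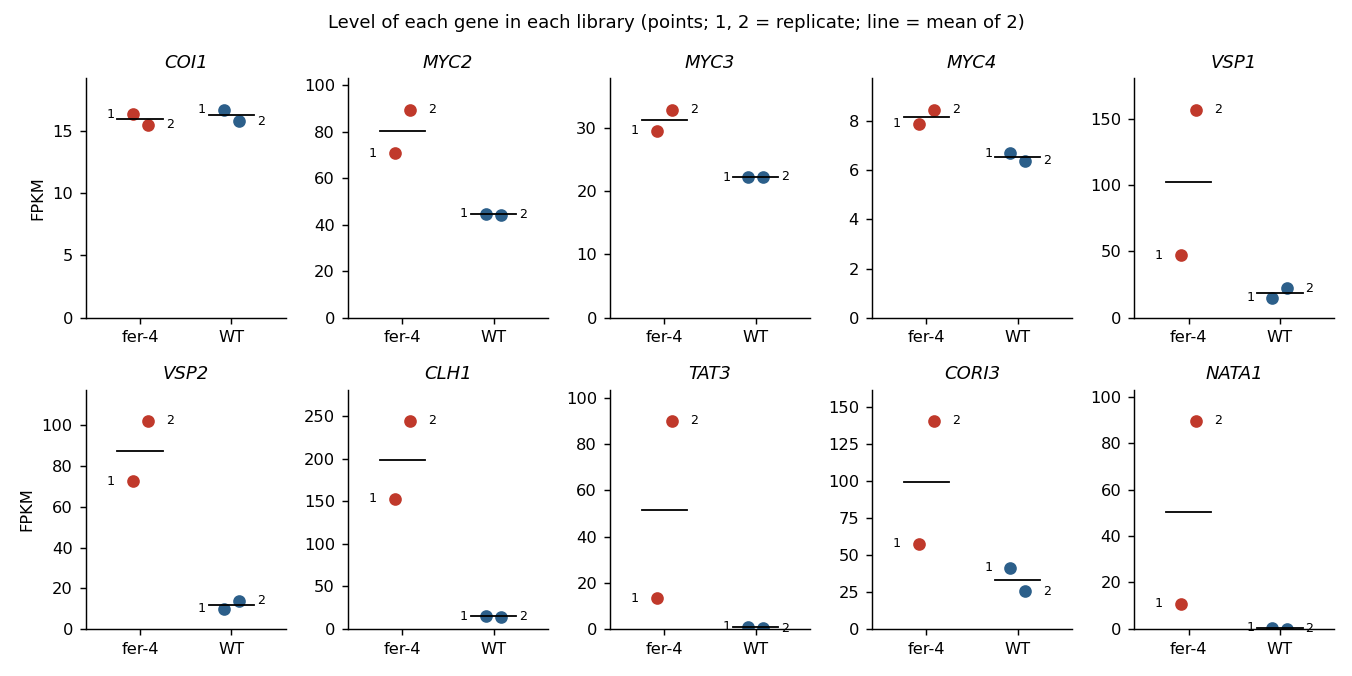
Level of each of the 10 genes in FPKM (vertical axes, each from 0) in the fer-4 libraries (red, left) and the WT libraries (blue, right); digits give the replicate and lines the mean of 2 libraries. COI1 is the 1 gene whose groups overlap, and fer-4 replicate 2 is the highest library for the other 9.

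The libraries listed 22537 to 22844 genes each. By an estimate from small listed values, taken in a fixed window that bounds it, they held about 19.5 to 20.7 M fragments. On this estimate 1 fragment in a transcript of 1000 bases stood for 0.048 to 0.051 FPKM. FER itself measured 60.6 and 62.1 FPKM in fer-4 and 89.0 and 91.9 FPKM in WT (log2 fold change -0.55 ± 0.08 SE, limma adjusted p = 0.00638), so transcript of the locus was present in the mutant. Markers of green shoot tissue (RBCS1A, LHCB1.3, PSBO1, GUN4) summed to 11648 and 9539 FPKM in fer-4 against 13010 and 13747 FPKM in WT, with GUN4 alone of the 4 passing the test, as a fall. The 5 root markers summed to 2100 and 2414 FPKM in fer-4 and 1788 and 1792 FPKM in WT. Most of these sums was PYK10, with 2010 and 2328 FPKM in fer-4 and 1688 and 1703 FPKM in WT. By log2 fold change PYK10 (0.35), SCR (0.07) and COBL9 (0.02) were higher in fer-4, and CASP1 (-0.13) and SHR (-0.26) were lower. Of the 5, 0 passed by limma, with 1 (SHR) at an unadjusted p under 0.05. The 4 markers of embryo and dry seed and the 4 of flowers summed to at most 1.39 FPKM in any library, with the storage protein gene CRA1 at 0 in all 4. The part of these tissue differences in the results below was not tested. In whole seedlings, fewer cells of a type and less RNA per cell cannot be told apart. Lines can also differ outside FER, which was not tested. A total of 141 genes reached 5 FPKM in each fer-4 library but stayed under 5% of their fer-4 average in WT replicate 1. These limits were picked with the data in view, and any strong rise from a low WT level also meets them. Among the 141 are TAT3 and NATA1 and, of the lists below, AT2G38240, TPS04, MBP1 and MBP2. Line and mutation cannot be told apart with this design.

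COI1 (AT2G39940, TAIR10.1 chromosome 2, 16672493 to 16675864, minus strand) measured 16.4 and 15.5 FPKM in fer-4 and 16.7 and 15.8 FPKM in WT. The groups overlapped, and the gap between genotypes was smaller than that between replicates. Its log2 fold change, -0.03 ± 0.09 (SE), had a 95% interval of -0.25 to 0.19 and did not pass (limma adjusted p = 0.861). The deposited file gives COI1 1 locus together with AT2G39930 (ISA1, a starch-debranching isoamylase), which ends on the opposite strand with 2 annotated bases shared. ISA1 measured 20.0 and 19.1 FPKM in fer-4 and 21.7 and 23.9 FPKM in WT and did not pass either (adjusted p = 0.158). Among the other subunits of the COI1 ubiquitin ligase, 0 of the 4 genes (ASK1, ASK2, CUL1 and RBX1A) passed by limma, where 23.3% of all tested genes did. At an unadjusted p under 0.05, 0 of the 4 passed either. The log2 fold changes of these subunits lay between -0.19 (ASK2) and 0.08 (CUL1). The groups overlapped for RBX1A alone of the 4, where 66.1% of all tested genes were apart in either direction. ASK1, the adaptor that links the F-box protein to the cullin, measured 243 and 254 FPKM in fer-4 and 240 and 235 FPKM in WT.

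MYC2 (AT1G32640, chromosome 1, 11798119 to 11801407, minus strand), the factor with the widest role in jasmonate responses, measured 70.9 and 89.6 FPKM in fer-4 and 44.8 and 44.4 FPKM in WT. Both fer-4 libraries were well above WT, and the fer-4 libraries were further apart than the WT libraries, which nearly coincided. The mean was 80.2 ± 13.2 FPKM in fer-4 and 44.6 ± 0.277 FPKM in WT (SD, n = 2), a ratio of 1.80, with a log2 fold change of 0.82 ± 0.12 (SE; limma adjusted p = 0.00696). In TAIR10.1 a long transcript of AT1G32630 covers 3241 bases of MYC2 on the other strand, whereas the loci in the deposited files do not overlap. AT1G32630 measured 6.10 and 5.02 FPKM in fer-4 and 5.46 and 5.55 FPKM in WT, far below MYC2 and without its difference.

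MYC3 (AT5G46760, chromosome 5, 18974022 to 18976590, plus strand), a partner of MYC2 that acts in the same complexes with JAZ proteins, measured 29.6 and 33.0 FPKM in fer-4 and 22.3 and 22.3 FPKM in WT. The groups did not overlap, and the ratio of means was 1.40 (log2 fold change 0.47 ± 0.09, limma adjusted p = 0.0166). MYC4 (AT4G17880, chromosome 4, 9933326 to 9935685, minus strand), the third of the group, had the lowest level, 7.90 and 8.48 FPKM in fer-4 and 6.70 and 6.40 FPKM in WT. Its fer-4 libraries also lay above both WT libraries, but with a log2 fold change of 0.28 (95% interval 0.03 to 0.54) it did not pass (adjusted p = 0.104). The order of levels was MYC2, MYC3, MYC4 in every library, with MYC2 giving 65.4% and 68.4% of the summed FPKM of the 3 genes in the fer-4 libraries and 60.7% in each WT library. Whether the 3 fold changes differ from each other was not tested. The calls of MYC2 and MYC3 ended without WT replicate 1 (adjusted p = 0.0579 and 0.096) and without WT replicate 2 (0.0652 and 0.104), and that of MYC3 also without fer-4 replicate 2 (0.0597).

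VSP1 (AT5G24780, chromosome 5, 8507590 to 8509201) and VSP2 (AT5G24770, chromosome 5, 8500468 to 8502224), neighbours on the minus strand, encode vegetative storage proteins with acid phosphatase activity and are among the most used reporters of the MYC branch. Their coding sequences are 90.4% identical, and 5 of 666 windows of 50 coding bases in VSP1 and 5 of 651 in VSP2 occur elsewhere in the nuclear genome. These windows allow no mismatch and leave out untranslated parts, and exchange of fragments between the genes was not tested. VSP2 measured 72.5 and 102 FPKM in fer-4 and 9.97 and 14.0 FPKM in WT. Both fer-4 libraries were far above both WT libraries, with a ratio of means of 7.30 (log2 fold change 2.77 ± 0.21, limma adjusted p = 0.000659). VSP1 measured 47.0 and 157 FPKM in fer-4 and 15.1 and 22.1 FPKM in WT. The groups did not overlap, but the fer-4 libraries differed 3.34-fold from each other (log2 fold change 2.18 ± 0.52, adjusted p = 0.0319; 0.0816 with no filter on low values). VSP1 made up 39.3% of the summed FPKM of the pair in fer-4 replicate 1, against 60.6% in fer-4 replicate 2, 60.2% in WT replicate 1 and 61.3% in WT replicate 2, so fer-4 replicate 1 was the 1 library in which VSP2 was the higher of them.

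The windows from 250 bases before to 50 bases after the annotated start of both VSP genes are shown because both neighbours rose, by amounts that differed between the fer-4 libraries; both are 5′ to 3′ on the gene's strand from RefSeq TAIR10.1, with matches to AACGTG or CACATG, on either strand, in capitals. CACGTG, the G-box, which MYC proteins bind, and the related hexamers AACGTG and CACATG were searched on both strands, as was GCCGCC, the element of the ethylene-response factors. The VSP1 window is chr5:8509152-8509451 and the VSP2 window chr5:8502175-8502474, both on the minus strand.
VSP1: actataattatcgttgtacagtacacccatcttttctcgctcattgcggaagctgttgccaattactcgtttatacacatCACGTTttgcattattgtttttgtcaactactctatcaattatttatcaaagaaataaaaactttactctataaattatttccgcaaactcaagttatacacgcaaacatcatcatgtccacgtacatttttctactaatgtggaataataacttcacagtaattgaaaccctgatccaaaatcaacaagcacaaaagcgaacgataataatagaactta
VSP2: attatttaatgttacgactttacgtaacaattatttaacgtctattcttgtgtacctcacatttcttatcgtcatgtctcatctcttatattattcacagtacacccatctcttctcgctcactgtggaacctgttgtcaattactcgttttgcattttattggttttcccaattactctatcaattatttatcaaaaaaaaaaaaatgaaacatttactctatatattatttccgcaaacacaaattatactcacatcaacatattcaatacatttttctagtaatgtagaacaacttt
The windows align over 220 columns, with 169 of 192 aligned bases identical (88%). The VSP1 window holds CACGTT, the reverse complement of AACGTG, 170 bases before the start, and the VSP2 window holds none of the 4 motifs.

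TAT3 and NATA1 had the largest rises of the 10 genes on the log2 scale, 29th and 21st among all tested genes. TAT3 (AT2G24850, chromosome 2, 10582074 to 10585216, minus strand), a tyrosine aminotransferase, measured 13.2 and 90.0 FPKM in fer-4 and 0.994 and 0.292 FPKM in WT. Both fer-4 values were far above both WT values, while the fer-4 libraries themselves were 6.83-fold apart (log2 fold change 4.48 ± 0.80, limma adjusted p = 0.0124). NATA1 (AT2G39030, chromosome 2, 16298110 to 16299205, plus strand), which acetylates ornithine to a defence compound, measured 10.9 and 89.5 FPKM in fer-4 and 0.570 FPKM in WT replicate 1, and WT replicate 2 did not list it. Transcript was thus near the floor in WT, and in fer-4 its libraries stood 8.19-fold apart (4.71 ± 0.87, adjusted p = 0.0138). Its neighbour NATA2, 78.5% identical in coding sequence with no shared run over 17 bases, measured 28.6 and 33.2 FPKM in fer-4 and 42.4 and 38.4 FPKM in WT and did not pass (adjusted p = 0.0533), although it did under 5 of the 15 alternatives (0.0149 to 0.0494). The windows of TAT3 (chr2:10585167-10585466, minus strand) and NATA1 (chr2:16297860-16298159, plus strand) are given, with the same marking, as those of the genes with the largest rises.
TAT3: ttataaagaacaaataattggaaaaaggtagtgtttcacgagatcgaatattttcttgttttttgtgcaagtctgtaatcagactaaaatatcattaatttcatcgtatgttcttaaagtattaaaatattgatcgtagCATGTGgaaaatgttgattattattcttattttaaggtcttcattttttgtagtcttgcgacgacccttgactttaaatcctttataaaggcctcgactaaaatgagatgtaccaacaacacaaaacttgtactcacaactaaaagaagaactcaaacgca
NATA1: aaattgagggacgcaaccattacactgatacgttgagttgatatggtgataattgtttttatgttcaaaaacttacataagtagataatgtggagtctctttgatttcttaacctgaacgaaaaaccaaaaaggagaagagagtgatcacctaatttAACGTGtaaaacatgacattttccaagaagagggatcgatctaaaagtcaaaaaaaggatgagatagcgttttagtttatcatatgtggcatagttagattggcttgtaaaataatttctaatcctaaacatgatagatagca
TAT3 has CATGTG, the reverse complement of CACATG, 111 bases before the start, and NATA1 has AACGTG 93 bases before it. The windows of MYC2 (CACGTT, 115 bases before the start) and CLH1 (CACATG, 55 bases before it) also hold a match. Over 27437 protein-coding genes, CACGTG occurred in 7.68% of such windows, AACGTG in 8.95%, CACATG in 12.9% and GCCGCC in 2.57%, against 0, 3, 2 and 0 of the 10 genes. With 1000 bases before the start the shares were 15.9%, 25%, 38.9% and 9.11%, and the 10 genes held 0, 4, 4 and 1. The annotated starts set these windows, and a match or its absence describes these letters only.

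CLH1 (AT1G19670, chromosome 1, 6803486 to 6805092, minus strand), a chlorophyllase also known as coronatine-induced protein 1, measured 153 and 245 FPKM in fer-4 and 14.9 and 14.4 FPKM in WT. It was the highest of the 10 genes in both fer-4 libraries and the sixth in both WT libraries, with a ratio of means of 13.6 (log2 fold change 3.63 ± 0.21, limma adjusted p = 0.000321). CORI3 (AT4G23600, chromosome 4, 12310379 to 12313212, plus strand), a cystine lyase of the tyrosine transaminase family, measured 57.4 and 140 FPKM in fer-4 and 41.2 and 25.4 FPKM in WT. Its groups did not overlap, but with replicates 2.45-fold apart in fer-4 the log2 fold change of 1.44 (95% interval 0.41 to 2.48) did not pass (adjusted p = 0.0576). Without fer-4 replicate 1 it passed (adjusted p = 0.00134), as it did with the replicate number as a block (adjusted p = 0.0407), whereas the value was 0.27 without WT replicate 2 and 0.184 with robust variance estimates. With 1 library left out its log2 fold change ranged between 0.81 and 2.08.

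**Figure D2:**
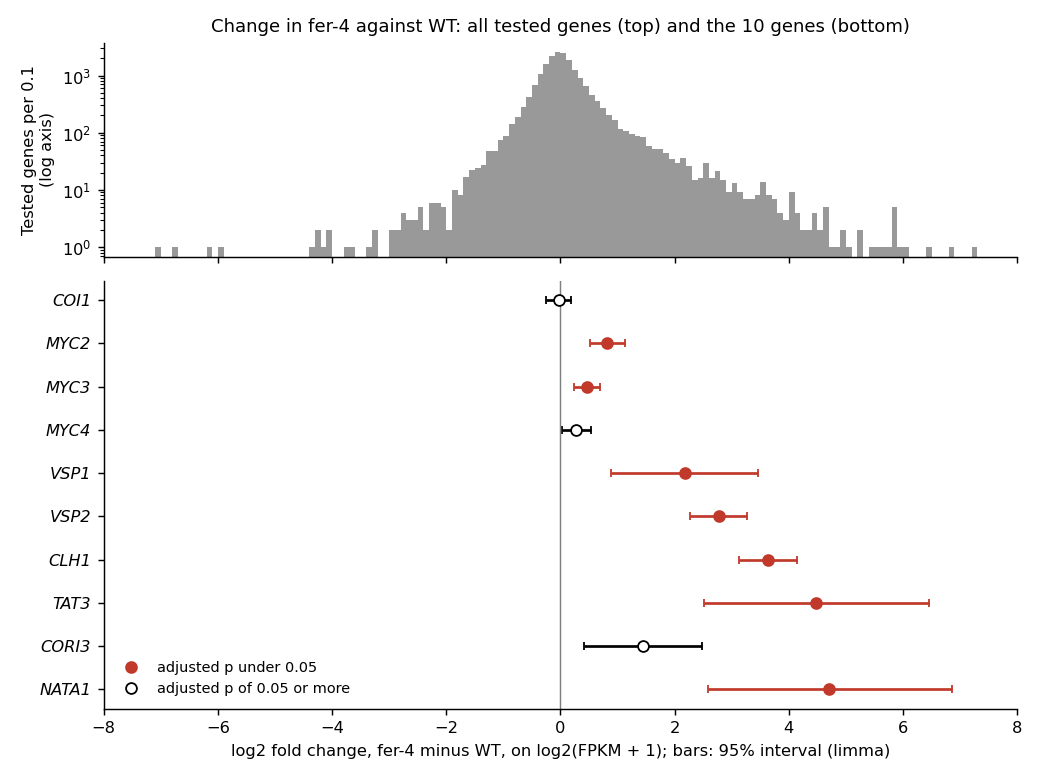
Log2 fold change of fer-4 against WT on log2(FPKM + 1): the number of all 19183 tested genes per bin of 0.1 (top, log axis) and each of the 10 genes with its 95% interval from limma (bottom; filled where the adjusted p is under 0.05). COI1 lies at -0.03, the MYC genes between 0.28 and 0.82 and the outputs between 1.44 and 4.71.

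The outputs summed to 354 and 824 FPKM in fer-4 and 82.7 and 76.2 FPKM in WT, while the 3 MYC genes summed to 108 and 131 FPKM in fer-4 and 73.7 and 73.1 FPKM in WT. Per FPKM of MYC2 there were thus 5.0 and 9.2 FPKM of outputs in fer-4, against 1.85 and 1.72 in WT. In WT the highest of the 10 genes was MYC2, followed by CORI3 and MYC3, and in both fer-4 libraries CLH1 was. The order of the outputs below CLH1 differed between the fer-4 libraries, with VSP2 before CORI3 and VSP1 in replicate 1 and VSP1 before CORI3 and VSP2 in replicate 2.

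The fer-4 libraries differed from each other in these genes. In replicate 2 the 6 outputs were higher than in replicate 1 by 0.49 (VSP2) to 2.92 (NATA1) on the log2(FPKM + 1) scale, with a median of 1.5, and all 6 lay above the 95th percentile of all tested genes (0.42; median 0.013). MYC2, MYC3 and MYC4 were higher by 0.33, 0.15 and 0.09 and COI1 was lower by 0.07, all within the 5th to 95th percentile. In WT the direction of the difference varied between outputs: in replicate 2 VSP1 and VSP2 were higher by 0.52 and 0.45, and TAT3, CORI3 and NATA1 lower by 0.63, 0.68 and 0.65. All of these lay outside the 5th to 95th percentile of all tested genes in WT (-0.37 to 0.32). CLH1, lower by 0.05, lay inside it. The log2 fold changes of VSP1, TAT3 and NATA1 ranged accordingly from 1.32, 3.14 and 3.25 without fer-4 replicate 2 to 3.03, 5.83 and 6.18 without fer-4 replicate 1. Their calls ended without WT replicate 1 (adjusted p = 0.17, 0.0702 and 0.0754), without WT replicate 2 (0.122, 0.102 and 0.109) and with robust variance estimates (0.157, 0.097 and 0.103), so with either WT library left out the members past the threshold were VSP2 and CLH1.

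**Figure D3:**
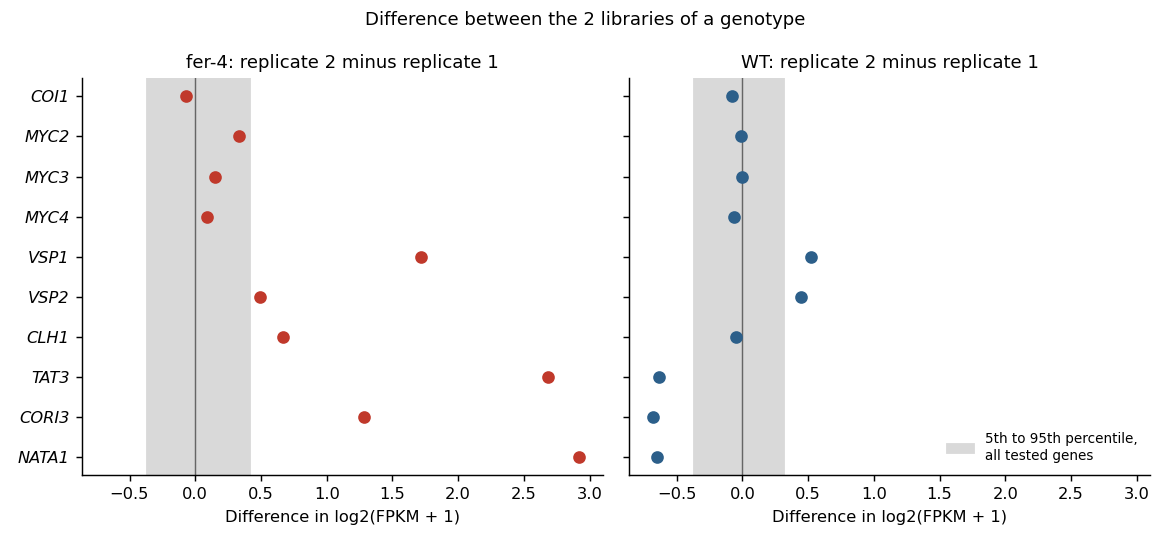
Difference in log2(FPKM + 1) between replicate 2 and replicate 1 for each of the 10 genes within fer-4 (left) and within WT (right); the grey band spans the 5th to 95th percentile of all tested genes. All 6 outputs lie right of the band in fer-4, up to 2.92 for NATA1, while COI1 and the MYC genes lie inside it. In WT, VSP1 and VSP2 lie right of the band and TAT3, CORI3 and NATA1 left of it.

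Of the other genes around the MYC factors, 48 of 54 listed ones passed the filter and were tested. Of these 21 rose and 1 fell, with a median log2 fold change of 0.41, where 14.3% of all tested genes rose and 9% fell. Of the 21, 8 had a WT mean under 1 FPKM and passed the filter only through fer-4, so these counts and medians lean towards rises and are given as a description. Near the shares of all tested genes, 1 of 10 coactivators, corepressors and stability factors of the MYC proteins rose and 0 fell. It was JAV1, a VQ-motif repressor of jasmonate defence, with 12.3 and 14.5 FPKM in fer-4 and 5.67 and 4.26 FPKM in WT (log2 fold change 1.28 ± 0.15, limma adjusted p = 0.00302). The Mediator subunit MED25, the adaptor NINJA and the corepressor TPL were among the 9 that did not pass. Of 3 tested bHLH relatives, 2 rose. JAM1 (AIB), which competes with MYC2 for its target sequences, measured 31.5 and 33.9 FPKM in fer-4 and 14.3 and 14.6 FPKM in WT (1.13 ± 0.09, adjusted p = 0.000708). JAM2, a repressor of the same kind, measured 11.3 and 10.6 FPKM in fer-4 and 6.91 and 6.27 FPKM in WT (0.66 ± 0.11, adjusted p = 0.00844; 0.0724 without WT replicate 2).

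Enzymes that conjugate, oxidise or otherwise turn over jasmonates had 8 of 11 tested genes higher and 0 lower, with a median of 2.28. Over all tested genes 14.3% were higher and 9% lower. Of the 8, 4 (AT2G38240, JRG21, CYP94B1 and JMT) passed the filter only through fer-4, and AT3G11180, low in both groups, was not tested. The largest rises were those of AT2G38240, JRG21 and AT5G05600, which encode oxygenases dependent on 2-oxoglutarate and iron. AT2G38240 measured 16.7 and 68.4 FPKM in fer-4 and 0.136 FPKM in WT replicate 1, with WT replicate 2 not listing it (5.04 ± 0.58, limma adjusted p = 0.0027). JRG21 measured 4.31 and 31.4 FPKM in fer-4 and 0.0674 and 0.0666 FPKM in WT (3.62 ± 0.76, adjusted p = 0.0212), and its call ended without WT replicate 1 (0.116) or WT replicate 2 (0.126), with no filter (0.0614) and with robust estimates (0.114). AT5G05600 was the most abundant of the 3, with 69.2 and 121 FPKM in fer-4 and 14.5 and 9.03 FPKM in WT (2.89 ± 0.30, adjusted p = 0.00191). JAR1, which makes the active conjugate jasmonoyl-isoleucine and was picked after its values were seen, did not pass, with 33.4 and 35.6 FPKM in fer-4 and 32.5 and 30.2 FPKM in WT.

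Of 10 tested genes known to be induced through COI1 and the MYC factors, 8 rose and 0 fell, with a median of 2.30. The shares over all tested genes were 14.3% and 9%. Of the 8, 4 (TPS04, CYP82G1, MBP2 and AT1G54020) passed the filter only through fer-4, as did ANAC019, while TPS10 and TPS03, at or near 0 in all libraries, were not tested. MBP1 and MBP2, neighbouring genes for myrosinase-binding proteins, measured 56.3 and 154 FPKM and 10.3 and 27.1 FPKM in fer-4, against 3.12 and 2.31 FPKM and 0.348 and 0.388 FPKM in WT (limma adjusted p = 0.00129 and 0.002). Their coding sequences were 85.5% identical over aligned bases, and 24 of 1242 windows of 50 coding bases in MBP1 and 24 of 1733 in MBP2 occur elsewhere in the nuclear genome. TPS04 encodes a geranyllinalool synthase that feeds volatile homoterpenes. It measured 8.09 and 30.1 FPKM in fer-4, against 0.0341 FPKM in WT replicate 1 and no listing in WT replicate 2 (4.05 ± 0.53, adjusted p = 0.0041). All 3 were higher in fer-4 replicate 2 than in replicate 1, as the outputs were. The lipoxygenase gene LOX2 and the NAC factor gene ANAC019, the 2 that did not pass, were named after their values were seen: LOX2 measured 328 and 560 FPKM in fer-4 and 242 and 224 FPKM in WT (adjusted p = 0.0502), and ANAC019 1.47 and 8.75 FPKM in fer-4 and 0.303 and 0.454 FPKM in WT (adjusted p = 0.0747). LOX2 passed under 4 of 15 alternatives, among them the replicate block (0.0429), a minimum of 5 FPKM (0.0464) and without fer-4 replicate 1 (0.00188). ANAC019 passed under 5 of 14, among them the replicate block (0.0185), a pseudocount of 0.1 (0.0462) and without either fer-4 library (0.000175 without replicate 1, 0.0426 without replicate 2).

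Of 10 tested relatives of the outputs in their own enzyme families, 2 rose and 1 fell, near the background of 14.3% and 9%, with a median of 0.02. Both fer-4 libraries lay above both WT libraries for 5 of them and below for 4, against 34.4% and 31.7% of all tested genes. AT4G23590, the transaminase gene next to CORI3, measured 4.42 and 6.87 FPKM in fer-4 and 2.75 and 2.30 FPKM in WT (0.89 ± 0.20, limma adjusted p = 0.0266). The acid phosphatase genes AT5G44020, with 258 and 233 FPKM in fer-4 and 181 and 195 FPKM in WT (0.38 ± 0.10, adjusted p = 0.0475), and AT4G29270, with 52.9 and 52.9 FPKM in fer-4 and 70.3 and 75.5 FPKM in WT (-0.46 ± 0.08, adjusted p = 0.0137), went opposite ways. All 3 calls ended without WT replicate 1 (adjusted p = 0.0986, 0.201 and 0.0583) and without WT replicate 2 (0.152, 0.132 and 0.0997). That of AT4G23590 also ended without fer-4 replicate 2 (0.0587) and with no filter (0.0641), and that of AT5G44020 under 8 of the 15 alternatives (0.0597 to 0.201).

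**Figure D4:**
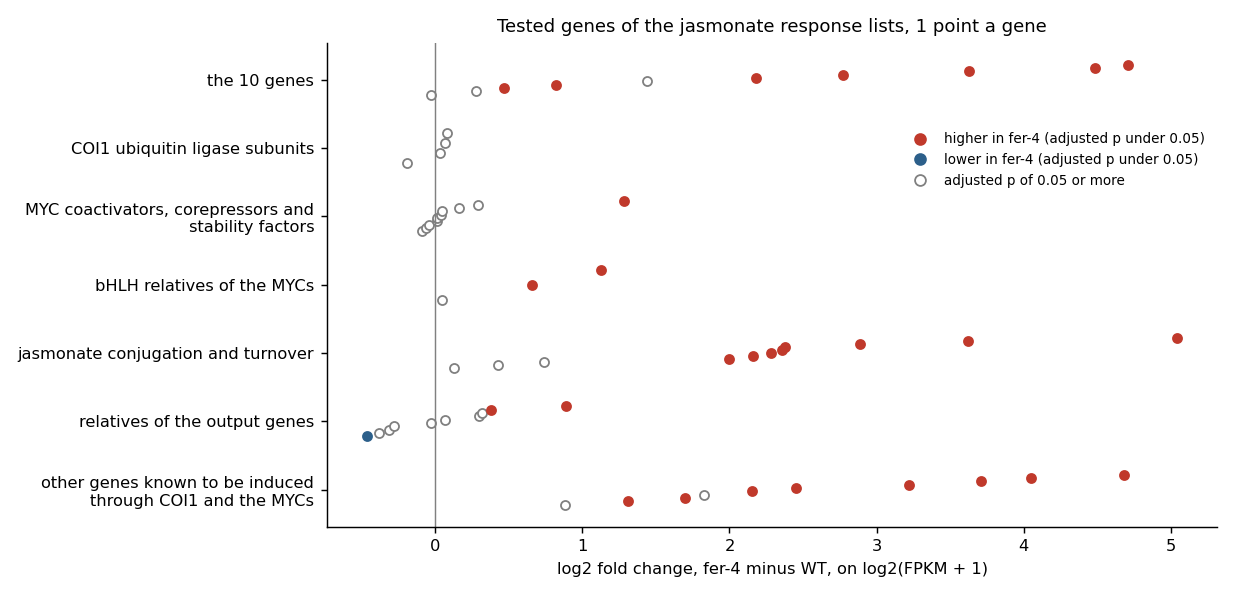
Log2 fold change of fer-4 against WT on log2(FPKM + 1) for each tested gene (points) of the 10 genes and of the 6 lists around them; red and blue points have an adjusted p under 0.05. Of the ligase subunits 0 of 4 are called, where 23.3% of all tested genes are. Red are 8 of 11 turnover enzymes and 8 of 10 other induced genes, where 14.3% of all tested genes rose. In each of these lists 4 of the red genes passed the filter only through fer-4.

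Genes with a course over the 4 libraries most like that of a member were taken by the smallest root mean square difference of log2(FPKM + 1), each gene centred on its own mean. For MYC2 they were ERF094 (ORA59, an activator of ethylene-branch defensin genes; difference 0.023), IAA10 (an Aux/IAA repressor; 0.023) and TGA7 (a bZIP factor; 0.031). ERF094 measured 7.79 and 10.5 FPKM in fer-4 and 4.59 and 4.68 FPKM in WT. For VSP2 they were CYP705A27 (0.101), AT3G23510 (0.130) and AT3G59710 (0.132), all under 10 FPKM in every library. For COI1, whose level was flat, they were CHC1 (0.004), AT2G48100 and AT1G71790 (0.005 each). With 4 libraries such likeness is a description only.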

How the data were processed

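Total mRNA of whole seedlings was sequenced in 4 libraries, 2 titled fer-4 and 2 titled WT, from an mRNA library kit, per the labels. The deposited values are gene-level FPKM, per the file headers, 1 file a library. Per the submitters' processing notes, CASAVA, HISAT2 2.0.5, StringTie 1.3.3 and the build TAIR10 were used, without roles or settings; strand setting and treatment of multiply mapped reads: not given in the sources used here. A gene that a file does not list was taken as 0.

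Genes averaging 1 FPKM or more were compared as log2(FPKM + 1) with limma-trend (limma 3.58.1, R 4.3.3), without covariates, and p-values were adjusted over all 19183 tested genes (threshold 0.05). Such fold changes understate those of low genes. The fit was tested on simulated data. No fragment counts were used. Depths are estimates from the median of FPKM times length in genes of 1 transcript, taken within a window set after the values were seen. The window bounds these estimates, so their likeness between libraries is partly built in. An exact permutation test of 2 against 2 libraries cannot pass the threshold. Members and gene lists were chosen with earlier results of these data known. Named are all members, up to 3 called genes with the largest rise and fall in each list (the first gene where none passed) and the nearest 3 genes in course to COI1, MYC2 and VSP2. Positions, promoters (Biopython 1.88) and names are from RefSeq TAIR10.1, which matched 24039 of the 24252 identifiers. Of these, 24038 overlapped their locus in the files, and 5397 had the same end there. Gene bounds thus often differ from those in the files, and other starts would shift the promoter windows. Alternatives were 14 planned ones (pseudocount, filter, scaling, variance prior, replicates left out, replicate block) and 1 added after the data were seen (crossed block).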

Additional observations from a re-analysis of the deposited data

How the results depend on the processing

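The count of 7 risers among the 10 genes was 6 to 8 under other pseudocounts, filters and scalings, without trend and with the replicate block, and 4 with robust variance estimates (all 4 being MYC2, MYC3, VSP2 and CLH1). Leaving out 1 library gave 2 to 8 risers, 13 to 26 called pathway genes (13 to 25 higher, 0 to 2 lower) and, over all genes, 1688 to 4417 calls (1227 to 2681 higher, 461 to 1736 lower), against 22 (21 and 1) and 4469 (2743 and 1726); the lowest counts came without a WT library. Pathway genes lower in fer-4 were 2 with quantile normalization, with median-ratio size factors, with robust estimates and with the crossed block. Quantile normalization moved the median of all genes to -0.071 on the log2 scale and gave 2285 higher and 2364 lower genes. COI1 (-0.07 to 0.01 with 1 library left out) changed sign, to 0.01, without WT replicate 1 and without fer-4 replicate 2, and had adjusted p = 0.435 or more throughout. VSP2 and CLH1 passed under all 15 alternatives (adjusted p up to 0.0101 and 0.00845). Same-numbered libraries deviated with a correlation of -0.222 across genes. The labels do not say whether libraries shared a batch under this or another numbering, and this was not tested. With the replicate block 3772 genes and 8 members were called. The crossed block, added after the data were seen, called 5681 genes and 8 members. Where a call changed, the cause was not tested. The block also moved the calls of CORI3, LOX2, ANAC019, CYP94B3 and AT5G44020. For NATA1 in WT and for TAT3 in WT replicate 2, the levels rest on few fragments at the estimated depth.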
